A study of Mus musculus with 18 samples.

Results

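The 3 receptor genes and 2 ligand genes of the R-spondin pathway set out here were followed across epithelial cells of the adult mouse lung: Rspo1 and Rspo3, which encode secreted R-spondins, and Lgr4, Lgr5 and Lgr6, which encode the receptors that bind them. They were taken by name, as the probe sets whose only gene symbol is one of these 5, and each had 1 probe set among the 30142 genes measured. The closest kin, Rspo2 and Rspo4, and the genes that act with R-spondins are described beside them. In the Wntlow cells, Rspo1 and Lgr6 were higher than in both other groups. Rspo1 was also higher in Wnthigh than in Wntnegative cells. Lgr4 lay at the edge of detection, and Lgr5 and Rspo3 were below the background limit on all 18 arrays.

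All cells came from TCF/Lef:H2B/GFP mice aged 8 to 12 weeks, in which sites bound by TCF and LEF factors drive a green fluorescent protein (GFP) fused to the histone H2B, so every group carries the reporter. Live cells positive for EpCAM were sorted into Wnthigh (high GFP), Wntlow (low GFP) and Wntnegative (no GFP) groups, after cells bearing CD31 or CD45 had been taken out on beads. The labels name the tissue as distal lung, while the protocol took trachea and bronchi with the lungs. Each group had 6 arrays, each from a pool of 3 to 4 animals. The Wnthigh arrays came from experiments 2, 4, 5, 7, 8 and 9, and the Wntlow and Wntnegative arrays from experiments 3, 4, 5, 7, 8 and 9. The p-values below take each pool as a replicate. In the main fit the 3 groups share a single estimate of the spread between pools. Its p-values thus do not rest on the spread of the compared groups alone. Groups that share an experiment are paired, and the main fit leaves this pairing out. A fit with the experiment as a replicate block is given as an alternative. The sort is on a fluorescent protein and a bulk array averages its pool, so fewer cells of a type and less RNA per cell cannot be told apart.

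The arrays formed 2 runs that had been normalized separately, experiments 2 to 5 and experiments 7 to 9, with 3 arrays of each group in both. The median of all genes was 5.11 to 5.18 in the first of these runs and 3.86 to 3.97 in the second, so values are compared within a run. The values are log2 on the deposited scale, which reaches 19.9, and differences are given on that scale rather than as ratios of RNA. The background limit of an array is the 95th percentile of 1376 olfactory and vomeronasal receptor genes, and it lay at 4.67 to 4.89 in the first run and 3.67 to 4.00 in the second. All 5 epithelial identity genes of the list used (Epcam, Cdh1, Nkx2-1, Krt8 and Krt18) were above this limit in the mean of every group in both runs. The group names go by GFP alone. Of 11 measured Wnt target and feedback genes, 8 were lower and 1 was higher in Wnthigh than in Wntnegative cells, as described further on.

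R-spondins do not start Wnt signalling by themselves but raise the response of a cell to Wnt proteins. The membrane ubiquitin ligases ZNRF3 and RNF43 mark Frizzled and LRP receptors for removal from the cell surface. An R-spondin that binds an LGR receptor together with one of these ligases clears the ligase, and the Wnt receptors then stay at the surface. In other mouse tissues Lgr5 and Lgr6 mark stem cells, as in the intestine (Lgr5) and the skin (Lgr6), and Lgr4 is found in many epithelia. In mouse lung, cells bearing Lgr5 or Lgr6 have been described in the mesenchyme.

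The stretches of DNA that lie just before Rspo1 and Lgr6 are shown because these are the members that were higher in the Wntlow cells. RefSeq's promoter windows, on build GRCm38.p6, are set as 250 bases before and 50 bases after a start site. Of the 5 members, 3 (Rspo1, Lgr6 and Lgr4) had one. For Rspo1 and Lgr6 that site was not the start of the annotated gene. Only 221 and 152 of their 300 bases precede the annotated gene, against 250 for Lgr4. The rest of each window lies within the gene and enters the counts over full windows. The part of each window that precedes the annotated gene is printed 5′ to 3′ on the gene's own strand, with CpG dinucleotides, the sites of DNA methylation in mammals, in capitals. The Rspo1 stretch is chr4:124986180-124986400 on the plus strand and the Lgr6 stretch is chr1:135105375-135105526 on the minus strand.
Rspo1: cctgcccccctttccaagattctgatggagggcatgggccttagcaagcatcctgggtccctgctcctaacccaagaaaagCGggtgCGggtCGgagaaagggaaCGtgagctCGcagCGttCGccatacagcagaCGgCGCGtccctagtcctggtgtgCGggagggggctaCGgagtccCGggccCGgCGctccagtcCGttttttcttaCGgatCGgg
Lgr6: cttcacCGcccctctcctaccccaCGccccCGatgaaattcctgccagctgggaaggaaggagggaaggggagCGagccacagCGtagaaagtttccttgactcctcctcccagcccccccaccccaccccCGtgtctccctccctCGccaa
The printed Rspo1 stretch holds 18 CpG in 221 bases and the Lgr6 stretch 7 in 152 bases. Over the full windows of 300 bases, Rspo1 had 29 CpG and 69.0% GC, and Lgr6 had 24 CpG and 67.7% GC. The median of all 32851 promoter windows was 7 CpG and 52.7% GC, and 20.0% of them held at least 24 CpG. The Lgr4 window had 18 CpG and 58.3% GC. On both strands, the TCF and LEF motifs CTTTGAT and CTTTGAA had no match in any of the 3 windows. CTTTGAT occurred in 3.73% and CTTTGAA in 5.14% of all windows, so a match was rare in any window of this length. TGTTTAC, a forkhead motif, had no match in the 3 windows and occurred in 3.65% of all, and TATAAA had none and occurred in 13.6%. CCAAT had 2 matches in the Lgr4 window and none in the others, and 37.4% of all windows held it. The absence of these letters from a window says nothing of the factors named.

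Rspo1 was above the background limit on all 18 arrays. In experiments 2 to 5 its log2 value was 6.39, 6.77 and 6.33 on the Wnthigh arrays, 6.75, 6.71 and 7.34 on the Wntlow arrays, and 5.65, 5.54 and 5.66 on the Wntnegative arrays. The Wntnegative arrays of that run all lay below the other groups, while the ranges of the Wnthigh and Wntlow arrays overlapped. In experiments 7 to 9 the log2 value was 4.67, 4.70 and 4.70 on the Wnthigh arrays, 5.78, 5.65 and 5.00 on the Wntlow arrays, and 4.30, 4.22 and 4.52 on the Wntnegative arrays. No groups overlapped in that run, and the order was Wntlow, then Wnthigh, then Wntnegative. Against a second limit, taken from 23 background control probe sets of the array, Rspo1 was above on 12 of 18 arrays, which were all 9 of experiments 2 to 5 and the 3 Wntlow arrays of experiments 7 to 9.

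The difference was largest between Wntlow and Wntnegative cells. Rspo1 averaged 6.20 ± 0.87 in Wntlow and 4.98 ± 0.70 in Wntnegative cells (SD, n = 6 each, the offset between the runs included). In a limma fit of all genes with a term for the run, this was a log2 difference of 1.22 (SE 0.15, 95% interval 0.91 to 1.53, adjusted p = 2.29e-05). The difference was 1.32 within experiments 2 to 5 and 1.13 within experiments 7 to 9. Within the 6 experiments that held both groups, Wntlow was above Wntnegative each time, by 0.47 to 1.68. The exact permutation test within runs (two-sided) gave p = 0.005, the smallest that 400 rearrangements can give.

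Wnthigh cells lay between the others for Rspo1. Their mean of 5.59 ± 1.0, against 4.98 ± 0.70 in Wntnegative cells (SD, n = 6 each), was a log2 difference of 0.61 (SE 0.15, 95% interval 0.30 to 0.92, limma adjusted p = 0.00296), and Wnthigh was higher in 5 of 5 experiments with both groups. The difference was 0.88 within experiments 2 to 5 and 0.34 within experiments 7 to 9, and the later run fitted alone did not pass (limma adjusted p = 0.281). Against the Wntlow cells, Wnthigh cells were lower, with a log2 difference of −0.61 (SE 0.15, 95% interval −0.93 to −0.30, limma adjusted p = 0.00409). Wnthigh was below Wntlow in 4 of 5 experiments. In experiment 4 it was higher by 0.05. This difference was −0.44 within experiments 2 to 5, which did not pass alone (limma adjusted p = 0.187), and −0.79 within experiments 7 to 9.

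**Figure D1:**
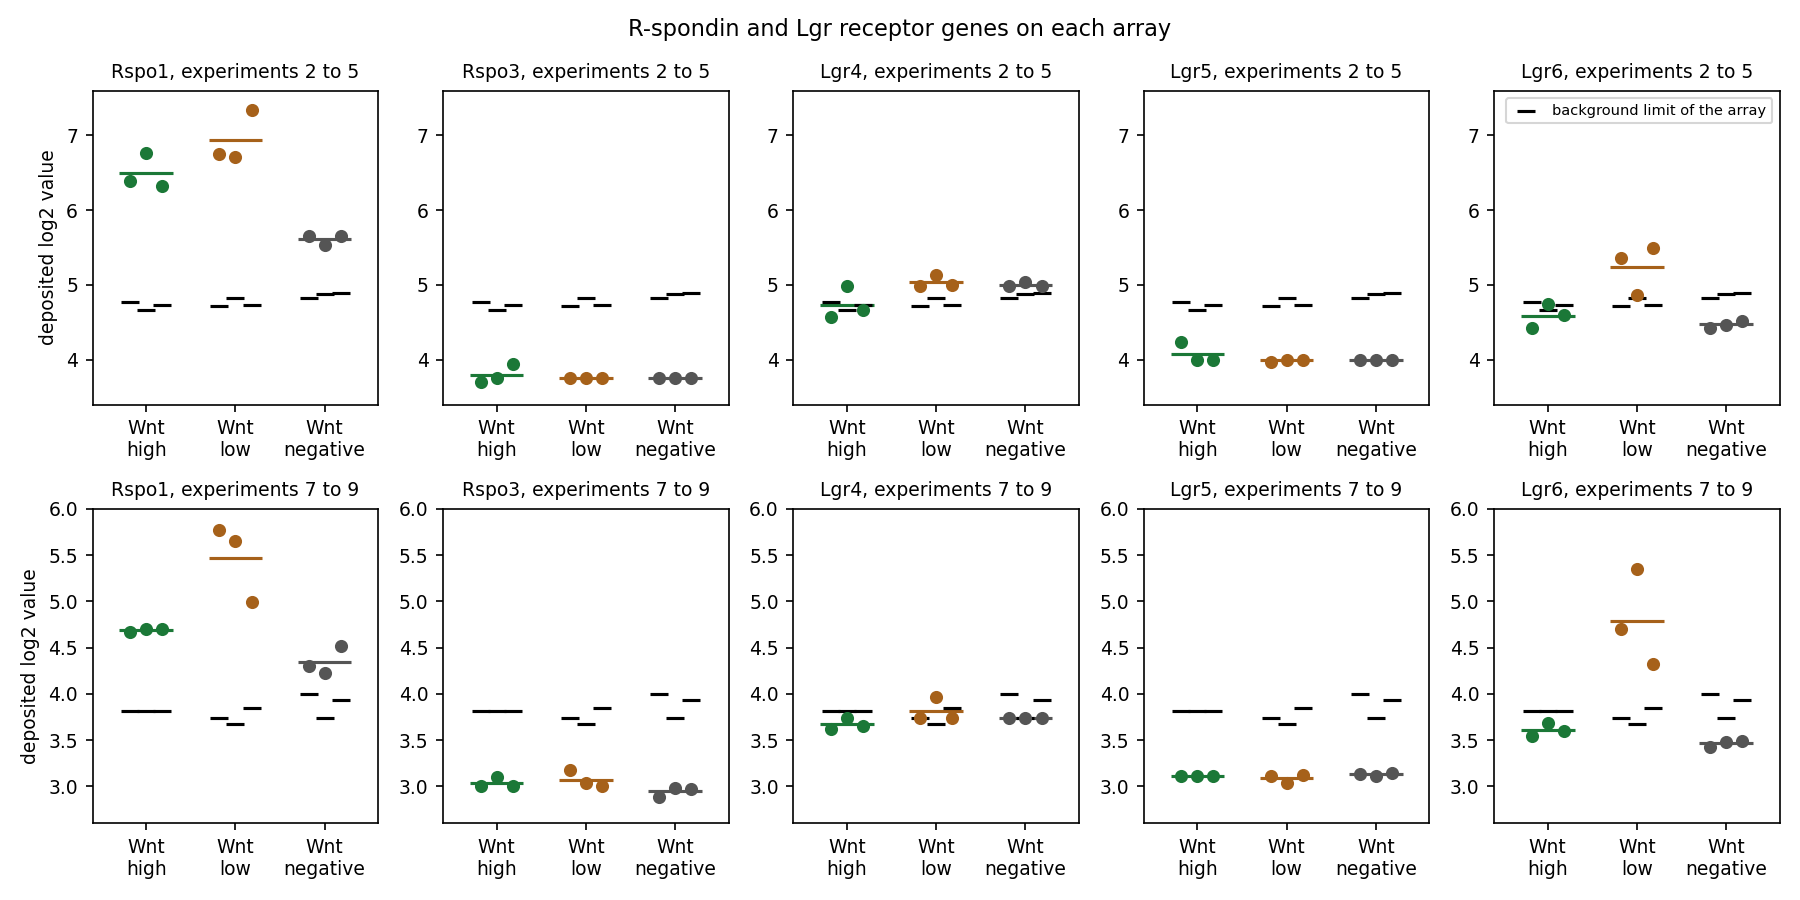
Deposited log2 value (y axis) of the 5 genes on each array, by group (x axis), with experiments 2 to 5 in the upper row and experiments 7 to 9 in the lower row. Points are arrays, coloured lines are the means of 3 arrays, and short black marks are each array's background limit. Rspo1 lies above the limit on all 18 arrays and Lgr6 on all 6 Wntlow arrays, while Rspo3 and Lgr5 lie below it everywhere.

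Rspo3 encodes the other ligand of the set. Its log2 value was 3.70 to 3.94 in experiments 2 to 5, with the same value of 3.75 on 7 of 9 arrays, and 2.88 to 3.17 in experiments 7 to 9. Both ranges lay below the background limit on every array, so only an upper bound on its level is given by these arrays. The fitted log2 differences were 0.07 for Wnthigh against Wntnegative, 0.06 for Wntlow against Wntnegative and 0.00 for Wnthigh against Wntlow, with limma adjusted p of 0.262, 0.347 and 0.972. Rspo2 and Rspo4, the remaining members of the ligand family, were also below the limit on all 18 arrays. Rspo2 had 3.64 to 3.76 in the first run and 3.04 to 3.14 in the second, and Rspo4 had 3.77 to 3.88 and 2.62 to 2.89. Rspo1 was thus the only R-spondin gene of the 4 that was above this limit on any array.

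Among the receptors, Lgr6 was above the limit on all 6 Wntlow arrays, on 1 Wnthigh array and on no Wntnegative array. In experiments 2 to 5 its log2 value was 4.42, 4.74 and 4.61 on the Wnthigh arrays, 5.36, 4.86 and 5.49 on the Wntlow arrays, and 4.43, 4.47 and 4.52 on the Wntnegative arrays. In experiments 7 to 9 it was 3.55, 3.69 and 3.59 on the Wnthigh arrays, 4.70, 5.35 and 4.33 on the Wntlow arrays, and 3.42, 3.47 and 3.49 on the Wntnegative arrays. The Wntlow arrays lay above all others in both runs, with no overlap. The Wnthigh and Wntnegative arrays overlapped in experiments 2 to 5 and did not in experiments 7 to 9. The single Wnthigh array above the limit was that of experiment 4. Against the limit from the control probe sets, Lgr6 was above on 3 arrays, the Wntlow arrays of experiments 3, 5 and 8.

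Lgr6 averaged 5.01 ± 0.46 in Wntlow and 3.97 ± 0.55 in Wntnegative cells (SD, n = 6 each), a log2 difference of 1.04 (SE 0.16, 95% interval 0.71 to 1.38, limma adjusted p = 0.00014). Because no Wntnegative array was above background, the difference is a bound of at least 0.64 when the limit of each array takes the place of the Wntnegative value. It was 0.76 within experiments 2 to 5 and 1.33 within experiments 7 to 9, and 0.40 to 1.88 within the 6 experiments with both groups. Wnthigh cells were lower than Wntlow cells, at 4.10 ± 0.55 against 5.01 ± 0.46 (SD, n = 6 each), a log2 difference of −0.91 (SE 0.16, 95% interval −1.25 to −0.58, limma adjusted p = 0.000255). With 1 of 6 Wnthigh arrays above background, the gap between these groups is at least 0.73 when the limit takes the place of any lower Wnthigh value. Wnthigh was below Wntlow in 5 of 5 experiments, with differences of −1.66 to −0.12. Between Wnthigh and Wntnegative cells the difference of 0.13 (95% interval −0.20 to 0.46) did not pass (limma adjusted p = 0.546). That fit shares its spread with the more variable Wntlow arrays. With only the 2 groups fitted, the difference had an SE of 0.05, against 0.16, and did not pass either (limma adjusted p = 0.0669). In 5 of 5 experiments it was positive, at 0.08 to 0.28, and the exact permutation test within runs gave an unadjusted p of 0.03, but nearly all of these values are below the background limit. Tested directly, the Wntlow against Wntnegative difference of Lgr6 was larger by 0.57 in the later run, which did not pass (limma interaction, adjusted p = 0.852, unadjusted p = 0.0696). That test called no gene at all in this comparison, so it does not show that the runs agree.

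Lgr4 was above the limit on 1 of 6 Wnthigh, 4 of 6 Wntlow and 4 of 6 Wntnegative arrays. In experiments 2 to 5 its log2 value was 4.57, 4.98 and 4.67 on the Wnthigh arrays, 4.98, 5.13 and 5.00 on the Wntlow arrays, and 4.98, 5.03 and 4.99 on the Wntnegative arrays. The values of experiments 7 to 9 were 3.62, 3.73 and 3.66 on the Wnthigh arrays, 3.73, 3.97 and 3.73 on the Wntlow arrays, and 3.73 on all 3 Wntnegative arrays. The value 3.73 was shared by 6 of the 9 arrays of that run and 4.98 by 3 of the 9 arrays of the other. The Wntlow and Wntnegative groups overlapped in both runs, and Wnthigh tended to the lower end. The Wnthigh mean of 4.20 ± 0.60 was lower than the Wntlow mean of 4.43 ± 0.68 (SD, n = 6 each), a log2 difference of −0.22 (SE 0.07, 95% interval −0.36 to −0.08, limma adjusted p = 0.0181), and Wnthigh was lower in 5 of 5 experiments. With the limit in place of lower Wnthigh values alone, and the Wntlow values kept, the gap was 0.10. It is not a bound, since only 4 of 6 Wntlow arrays were above the limit. That call was lost when the arrays were centred on their medians (−0.19, limma adjusted p = 0.0616), without experiment 5 (−0.20, limma adjusted p = 0.0803) and within either run alone. Wnthigh against Wntnegative, at −0.16, did not pass (limma adjusted p = 0.0585), nor did Wntlow against Wntnegative, at 0.06 (limma adjusted p = 0.587).

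Lgr5, a Wnt target gene in the intestine as well as a receptor, was below the limit on all 18 arrays. Its log2 value was 3.98 to 4.24 in experiments 2 to 5, with 4.00 on 7 of 9 arrays, and 3.04 to 3.14 in experiments 7 to 9, with 3.11 on 5 of 9. The highest value was on the Wnthigh array of experiment 2. The 3 fitted log2 differences lay between −0.02 and 0.06, and none passed (limma adjusted p = 0.341 to 0.693). Values repeated across arrays in this way show no order of the groups.

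**Figure D2:**
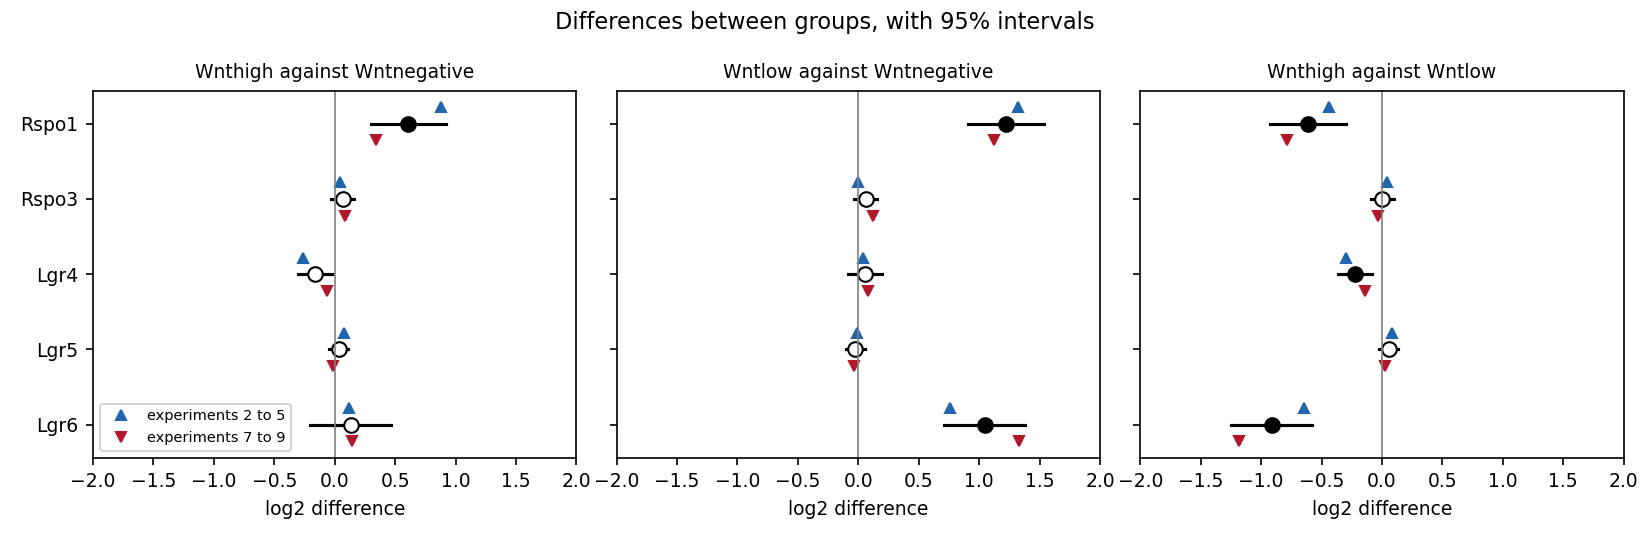
Log2 difference (x axis) of each gene (y axis) in the 3 comparisons, from the limma fit with a term for the run over 18 arrays. Circles are the fitted differences with 95% intervals, filled where the adjusted p is under 0.05, and triangles are the differences within each run. Rspo1 and Lgr6 are right of 0 for Wntlow against Wntnegative and left of 0 for Wnthigh against Wntlow in both runs.

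Set against all genes, changes between the sorted groups were common. For Wnthigh against Wntnegative, 1 of the 5 members passed and was higher (Rspo1), where 40.3% of all genes passed, 15.7% higher and 24.6% lower. For Wntlow against Wntnegative, 2 of 5 were higher (Rspo1 and Lgr6) and none lower, where 25.5% of all genes passed, 12.3% higher and 13.2% lower. For Wnthigh against Wntlow, 3 of 5 were lower (Rspo1, Lgr6 and Lgr4) and none higher, where 27.9% of all genes passed, 11.4% higher and 16.4% lower. The median log2 difference of the 5 members was 0.07, 0.06 and −0.22 in these comparisons, and that of all genes was −0.05, −0.03 and −0.01. A filter that kept genes above the background limit on at least 3 arrays of each run retained 15798 genes, and Rspo1 and Lgr6 were the only members among them. Lgr6 was retained through its Wntlow arrays, which were the only ones above the limit in experiments 7 to 9, so its retention goes with its difference. A fit without a term for the run, which leaves the offset between runs in the error, called none of the members in any comparison, and the lowest limma adjusted p of the comparisons called with that term was then 0.0740, for Lgr6 in Wntlow against Wntnegative.

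Rspo1 and Lgr6 were both at their highest in Wntlow cells, and the arrays of that group differed from each other in part in the same order. In experiments 2 to 5, the Wntlow array of experiment 5 was highest for both genes, then that of experiment 3, then that of experiment 4. Among the later 3 experiments, experiment 9 was lowest for both, and experiments 7 and 8 changed places. In the Wnthigh cells the genes differed in detection. In the later run all 3 Wnthigh arrays were above the 3 Wntnegative arrays for both genes. They were above the background limit for Rspo1 and below it for Lgr6. Against the limit from the control probe sets, Rspo1 was below on these arrays too. After centring on the run, both genes correlated (Pearson, n = 6 each) at 0.84 within the Wnthigh, 0.64 within the Wntlow and −0.67 within the Wntnegative arrays. The centring used all 9 arrays of a run, so any shift of a group between the runs stays in these correlations. They therefore do not show that the genes vary together between pools. Lgr6 was also above the limit on only 1 Wnthigh array and on no Wntnegative array.

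**Figure D3:**
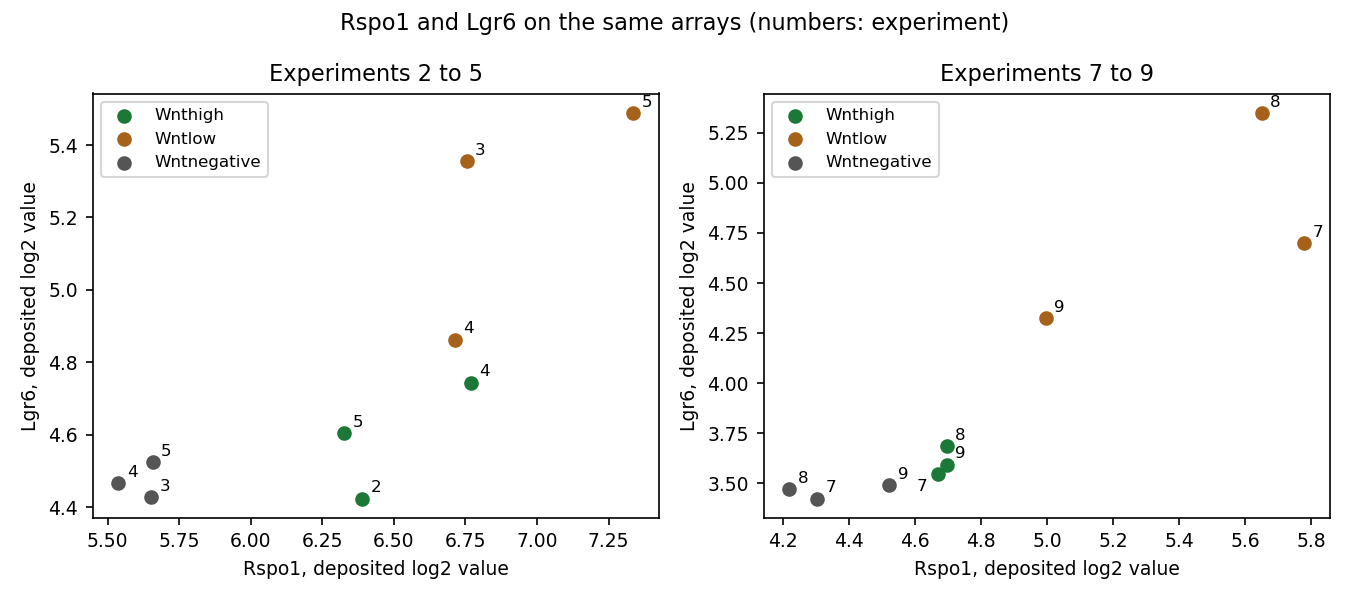
Lgr6 (y axis) against Rspo1 (x axis), both as deposited log2 values, for the 9 arrays of experiments 2 to 5 and the 9 arrays of experiments 7 to 9, with the experiment number beside each point. Wntlow arrays sit highest for Lgr6 in both panels, and Wnthigh arrays sit right of the Wntnegative arrays for Rspo1.

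Genes with the pattern most like each member were taken by Pearson correlation over the 18 arrays after centring each gene on its run. The 10968 candidates were protein coding genes with a mean above the background limit in at least 1 group in both runs. A gene above the limit in Wntlow cells alone could thus enter, as Lgr6 did. These arrays share their groups and experiments, so the correlations describe likeness and carry no test. For Rspo1 they were Tyro3, a receptor tyrosine kinase (0.951), Crybg1 (0.949), Slc16a11, of the monocarboxylate transporter family (0.949), and Trpv4, a calcium-permeable channel (0.948). Slc16a11 averaged 6.74 in Wnthigh, 8.06 in Wntlow and 5.74 in Wntnegative cells, the same order of groups as Rspo1. For Lgr6 they were Ern2, a stress sensor of the endoplasmic reticulum in mucous epithelia (0.982), Cldn22, a claudin (0.980), Tnfaip2 (0.979) and Padi1, an enzyme that converts arginine in proteins to citrulline (0.979). Ern2 averaged 4.08 in Wnthigh, 5.64 in Wntlow and 4.02 in Wntnegative cells. For Lgr4 they were Eif3l, a translation initiation factor subunit (0.905), Commd1 (0.901), Blvrb, a biliverdin reductase (0.891), and Trmt2b (0.889). Lgr4 had the same value, 3.73, on 6 of the 9 arrays of the later run, which limits what its likeness can show. None was sought for Lgr5 and Rspo3, which were below background.

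The ligase that R-spondins act on moved far more than any member. Znrf3 was above the limit on all arrays and averaged 7.66 ± 1.24 in Wnthigh, 9.37 ± 1.18 in Wntlow and 11.40 ± 0.66 in Wntnegative cells (SD, n = 6 each). In experiments 2 to 5 its log2 value was 7.99, 9.62 and 8.40 on the Wnthigh arrays, 9.33, 11.42 and 9.92 on the Wntlow arrays, and 11.96, 12.00 and 11.90 on the Wntnegative arrays. The Wntlow array of experiment 4 lay close to the Wntnegative arrays, and leaving it out kept the calls of Rspo1 and Lgr6. In experiments 7 to 9 Znrf3 was 6.41 to 6.89 on the Wnthigh arrays, 8.16 to 8.87 on the Wntlow arrays and 10.4 to 11.3 on the Wntnegative arrays, with no overlap. The log2 difference was −3.75 for Wnthigh against Wntnegative (limma adjusted p = 1.46e-07), −2.04 for Wntlow against Wntnegative (limma adjusted p = 0.000276) and −1.71 for Wnthigh against Wntlow (limma adjusted p = 0.000787). The last 2 differences did not pass in experiments 2 to 5 alone or without a run term. Rnf43, the related ligase, had no probe set of its own and was not analysed here.

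Of 9 measured partners and effectors of R-spondins, 4 were lower and none higher in Wnthigh than in Wntnegative cells, and the same 4 were lower in Wntlow than in Wntnegative cells. Besides Znrf3 these were Sdc4, Iqgap1 and Bmpr1a. Sdc4, a heparan sulphate proteoglycan that binds R-spondins, had log2 differences of −1.11 and −1.22. Iqgap1, a scaffold protein that binds LGR4, had −0.95 and −1.04. Bmpr1a, a BMP receptor that some R-spondins can bind, had −0.48 and −0.42. For Wnthigh against Wntlow, Znrf3 was lower and the other 8 did not pass. The list's median log2 difference was −0.06, −0.06 and 0.00. Tnfrsf19, a receptor of the tumour necrosis factor receptor family, was above background on 6 Wnthigh, 6 Wntlow and 4 Wntnegative arrays and did not pass in any comparison. Ndp and Tnfsf11 were below the limit on all arrays, as were Rspo2 and Rspo4. Tshr, Fshr, Rxfp1 and Rxfp2, the relatives of the LGR genes that bind hormones, were below the limit in every group mean. Tshr passed as higher in Wnthigh than in Wntlow cells by 0.24, a change below background that did not pass with the experiment as a replicate block.

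Wnt receptors, which the ligases remove, moved in both directions. Of 12 measured, 3 were higher and 7 lower in Wnthigh than in Wntnegative cells, with a median log2 difference of −0.42. Fzd4 was higher by 2.32, Fzd3 by 1.63 and Fzd6 by 1.46, and the co-receptors were lower, Lrp5 with a log2 difference of −2.72 and Lrp6 with −0.39. Fzd1, Fzd2, Fzd5, Fzd7 and Fzd8 were also lower, with Fzd5 at −1.60. In Wntlow against Wntnegative cells, Fzd3 (0.73) and Fzd4 (1.34) were higher and Fzd5, Fzd9, Lrp5 and Lrp6 lower, with a list median of −0.12. In Wnthigh against Wntlow cells, Fzd3, Fzd4 and Fzd6 were higher by 0.90 to 1.25 and Fzd1, Fzd5, Fzd8 and Lrp5 lower, with a list median of −0.16. With the experiment as a replicate block, Fzd2 in Wnthigh against Wntnegative, Fzd9 in Wntlow against Wntnegative (−0.11, limma adjusted p = 0.0301) and Fzd1 in Wnthigh against Wntlow (−0.28, limma adjusted p = 0.0422) no longer passed. The calls of Fzd9 and Fzd1 each held in 9 of 21 alternatives.

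Of 11 measured targets and feedback genes of Wnt/beta-catenin signalling, 8 were lower in Wnthigh than in Wntnegative cells, while 5 were lower in each of the other comparisons. Axin2, a feedback inhibitor and common readout of the pathway, averaged 4.83 ± 1.06 in Wnthigh, 5.15 ± 1.31 in Wntlow and 6.47 ± 1.10 in Wntnegative cells (SD, n = 6 each). Its log2 difference was −1.64 for Wnthigh against Wntnegative (limma adjusted p = 1.05e-05) and −1.32 for Wntlow against Wntnegative (limma adjusted p = 0.000272). Neither passed without a run term, and the Wntlow against Wntnegative difference did not pass in experiments 2 to 5 alone. In experiments 7 to 9 Axin2 was near the limit, on average 0.08 above it on Wnthigh and 0.31 on Wntlow arrays, against 1.59 on Wntnegative arrays. Nkd1, which binds Dishevelled and dampens the pathway, differed by −5.98 and −3.82, and Notum, an enzyme that inactivates Wnt proteins, by −1.18 and −0.82. Wif1, a secreted Wnt inhibitor, went the other way, with 6.88 for Wnthigh against Wntnegative, 2.83 for Wntlow against Wntnegative and 4.05 for Wnthigh against Wntlow. The other lower genes in Wnthigh against Wntnegative were Sp5, Ascl2, Cd44, Bambi and Myc, with 1 gene higher, and 5 were lower and 2 higher in Wntlow against Wntnegative. Sp5 was below the limit on all 18 arrays, so its change lies below background, and Ascl2 was above the limit on 3 Wnthigh, 4 Wntlow and 5 Wntnegative arrays. In Wnthigh against Wntlow, 5 were lower (Nkd1, Cd44, Bambi, Myc and Dkk2) and 1 was higher (Wif1), with Dkk2 above the limit on 2 Wntlow arrays and no others. The Nkd1 call in that comparison (−2.16, limma adjusted p = 0.0427) was lost with the experiment as a replicate block and in either run alone, and held in 9 of 21 alternatives. That of Bambi (−1.23, limma adjusted p = 0.0213) was lost in experiments 2 to 5 alone and held in 13 of 21. The list's median log2 difference was −0.63, −0.45 and −0.36. Lef1, a factor that binds the reporter's sites, was below the limit on all 18 arrays.

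**Figure D4:**
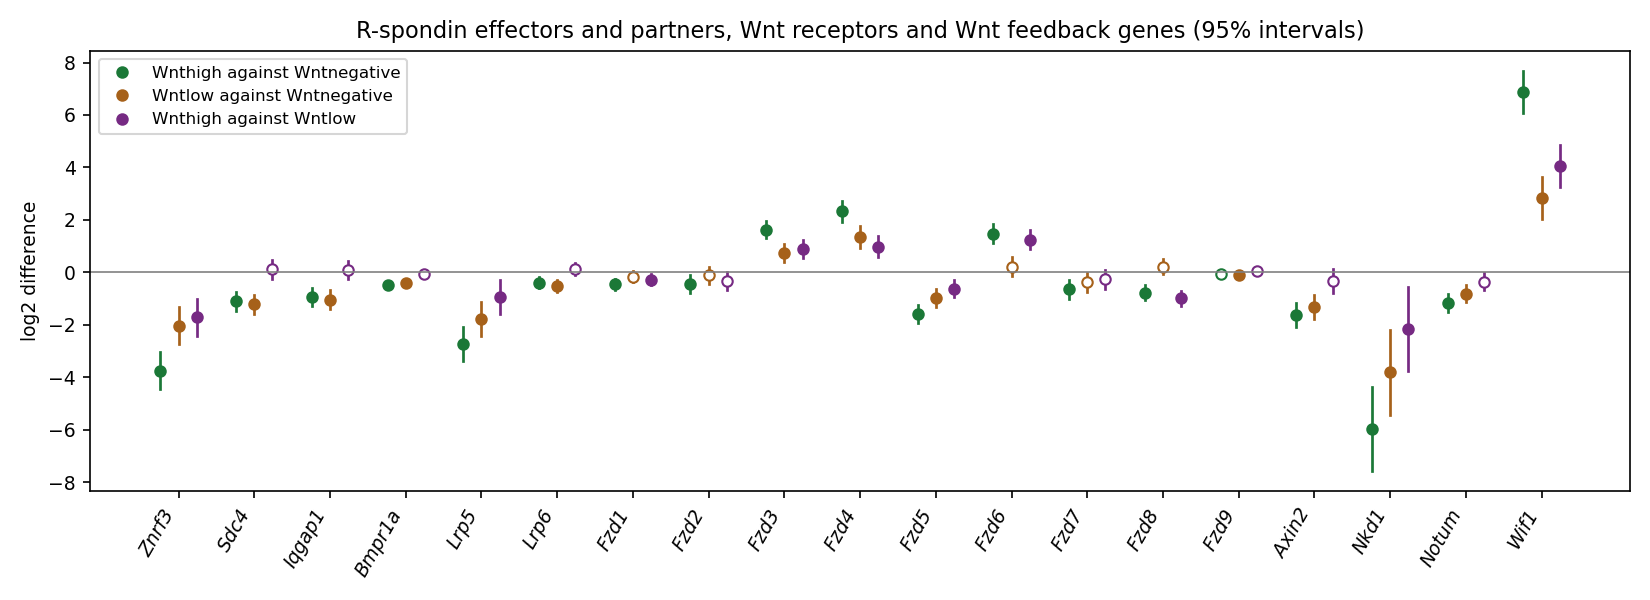
Log2 difference (y axis) of R-spondin effectors and partners, Wnt receptors and Wnt feedback genes (x axis) in the 3 comparisons, with 95% intervals from the limma fit over 18 arrays. Filled circles have an adjusted p under 0.05. Znrf3, Lrp5, Axin2, Nkd1 and Notum are below 0 against the Wntnegative cells, and Fzd3, Fzd4 and Wif1 are above 0.

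Markers of several cell types moved with Rspo1 and Lgr6, and their part in the result was not tested. All 7 club and goblet cell genes were higher in Wntlow than in Wntnegative cells (median log2 difference 10.38), all 7 were higher in Wnthigh than in Wntnegative cells (3.72), and 6 of 7 were lower in Wnthigh than in Wntlow cells (−4.01). Of those 6, 4 passed with the experiment as a replicate block. Scgb1a1 and Scgb3a2, secretoglobin genes of club cells, each had a limma adjusted p of 0.0493, lost it under the block and in either run alone, and held it in 8 of 21 alternatives. Muc5b, a mucin of goblet and secretory cells, had log2 differences of 10.38 for Wntlow against Wntnegative and −6.68 for Wnthigh against Wntlow. The summed log2 value of these 7 genes was 83.1 to 111.0 on Wnthigh, 115.1 to 119.1 on Wntlow and 62.6 to 69.1 on Wntnegative arrays of experiments 2 to 5. In experiments 7 to 9 it was 96.8 to 99.1 on Wnthigh, 124.4 to 129.3 on Wntlow and 60.9 to 71.2 on Wntnegative arrays. The groups thus stood in the same order as for Rspo1 and did not overlap. The 6 measured ciliated cell genes were all higher in Wntlow than in Wntnegative (median 6.74) and in Wnthigh than in Wntnegative cells (10.04), and higher in Wnthigh than in Wntlow cells (3.30), an order that Rspo1 and Lgr6 did not follow.

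Alveolar type II genes were lower in 7 of 8 for Wnthigh against Wntnegative, 3 of 8 for Wntlow against Wntnegative and 4 of 8 for Wnthigh against Wntlow, with none higher. The last count includes Slc34a2, a phosphate transporter, whose call held in 9 of 21 alternatives. Of 6 alveolar type I genes, 1 was higher and 5 lower, 1 higher and 2 lower, and 1 higher and 4 lower in the same comparisons. Of 5 basal cell genes, Krt5 was higher in Wntlow than in Wntnegative cells and Dapl1 lower in Wnthigh than in Wntlow cells. Of 3 neuroendocrine genes, Uchl1 was higher in all 3 comparisons. Of the epithelial identity genes, Cdh1, Krt8 and Krt18 were higher and Nkx2-1 lower in Wnthigh than in Wntnegative cells, Krt8 and Krt18 higher and Nkx2-1 lower in Wntlow than in Wntnegative cells, and Cdh1 higher and Krt18 lower in Wnthigh than in Wntlow cells. With the experiment as a replicate block, the calls of Krt5 and of the higher alveolar type I gene (Clic5) in Wntlow against Wntnegative and of Krt18 in Wnthigh against Wntlow did not pass.

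Rspo1 is a product of mesothelial cells and Lgr6 of mesenchymal and muscle cells in some mouse tissues, and genes of non-epithelial cells were read for that reason. Of 5 mesothelial genes, Msln and Upk1b were higher in Wntlow than in Wntnegative cells, Upk1b by 3.71 and Msln by at least 2.36 on the log2 scale, and both were lower in Wnthigh than in Wntlow cells. Wt1, a defining mesothelial gene, was below the limit on all 18 arrays, Upk3b was above it in experiments 2 to 5 alone, in every group, and Lrrn4 on 2 arrays. The summed log2 value of the 5 genes was 23.5 to 30.7 on Wnthigh, 29.0 to 34.7 on Wntlow and 24.2 to 25.3 on Wntnegative arrays of experiments 2 to 5. In the later run it was 18.4 to 18.9 on Wnthigh, 23.3 to 29.3 on Wntlow and 17.3 to 18.3 on Wntnegative arrays. Their part in the result was likewise not tested. Of 8 fibroblast and mesenchymal genes, Dcn was higher in Wntlow than in Wntnegative cells by 1.11 and lower in Wnthigh than in Wntlow cells, and the other 7 did not pass. The Dcn calls (limma adjusted p = 0.0293 and 0.0182) held in 14 and 16 of 21 alternatives, and both were lost in either run alone and without experiment 8. None of 6 smooth muscle genes was above the limit in any group mean, though Cnn1 passed as higher and Actg2 as lower for Wnthigh against Wntnegative, calls that were lost with the replicate block. Of 6 endothelial genes, Kdr was higher in Wntlow than in Wntnegative cells by 6.01, higher in Wnthigh than in Wntnegative cells by 1.92, and lower in Wnthigh than in Wntlow cells with a log2 difference of −4.09, the same order of groups as for Rspo1. Esam was lower in Wnthigh and in Wntlow than in Wntnegative cells, while Pecam1 and Cdh5 were below the limit on all arrays. Of 6 immune genes, none passed in Wntlow against Wntnegative, 1 was higher (Csf1r) and 2 lower (Cd68 and, lost with the block, Cd79a) in Wnthigh against Wntnegative, Csf1r was higher in Wnthigh against Wntlow, and Ptprc was below the limit on all arrays.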

How the data were processed

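Sorted cells of 3 groups were measured on 18 Affymetrix arrays, from 8 ng of RNA each, per the labels' protocols. The authors deposited log2 values of 72688 probe sets, made with RMA per the submitters' processing notes. Neither the software nor the chip annotation is named, and the build of the probe sets was not given in the sources used here. Probe sets with 1 symbol were named from the platform annotation (827 symbols updated), and the brightest stood for a gene, which left 30142 genes.

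Differences were tested with limma 3.58.1 in R 4.3.3 (lmFit and eBayes, two-sided) over all 18 arrays, with group and run as terms and Benjamini-Hochberg adjustment over all genes at 0.05. A single gene was also tested by exact permutation within runs. On simulated data of 30142 genes, log2 changes of 1 and 2 were recovered in 89% and 98% of 100 genes each for Wntlow against Wntnegative, with 9 false calls, and in 87% and 98% for Wnthigh against Wntlow, with 10. No change was simulated for Wnthigh against Wntnegative. The simulated noise was normal and independent between arrays, with 200 changed genes and no values repeated at background. These rates therefore need not hold for genes near background or for arrays that share an experiment. The number of arrays limits the precision.

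The labels give arrays of different groups the same experiment, which pairs them. The main fit and the permutation test treat these arrays as independent. Residuals from group means of the 16 pairs correlated at 0.486 to 0.802, and at 0.003 to 0.516 after run means were removed.

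The members, the 16 lists (107 of 116 genes measured) and the tests were chosen with earlier results of these data known. Genes named are the members, the 4 genes most like each detected member, Znrf3, Rnf43, Axin2 and Lef1, and list members past the threshold. Other list members were named after their values were seen. Alternatives were the run and experiment terms, each run alone, centring, quantile normalization, probe set choice, a dim-gene filter, trended variance, array weights, the background limit and the omission of arrays.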

Additional observations from a re-analysis of the deposited data

Results flagged for a closer look

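With each gene centred on its run, 4 of 15 combinations of member and group held 1 array far from the other 5 by Dixon's test. That test flags about 1 in 20 groups by chance only where values are normal and untied. Lgr5 and Rspo3 repeat values across arrays, so this rate does not hold for them. Rspo1 on the Wnthigh array of experiment 4 was 0.42 above its run's mean (log2 value 6.77), where the other Wnthigh arrays were at −0.17 to 0.04. That array was also the single Wnthigh array with Lgr6 above background.

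The other 3 values were below the background limit. Lgr5 on the Wnthigh array of experiment 2 was at 0.21 (log2 value 4.24), where the other Wnthigh arrays were at −0.02 to 0.00. Rspo3 on the Wntlow array of experiment 7 was at 0.16 (log2 value 3.17), where the others were at −0.02 to 0.02. Rspo3 on the Wntnegative array of experiment 7 was at −0.13 (log2 value 2.88), where the others were at −0.04 to −0.01.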

How the results depend on the processing

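Over 21 or 22 alternatives for each of the 15 member differences, 292 of 321 values kept their direction and side of the threshold. This count does not measure robustness, since many of these outcomes could hardly differ. Each member had 1 probe set, so the choice of probe set changed no difference. Leaving out a single Wntlow array left the Wnthigh against Wntnegative differences as they were. Lgr5 and Rspo3, both below background, passed under no alternative. The permutation p-values entered unadjusted. Without a run term, adjusted p was 0.893 for Rspo1 (0.61) in Wnthigh against Wntnegative, 0.280 for Rspo1 (1.22) and 0.0740 for Lgr6 (1.04) in Wntlow against Wntnegative, and 1 for Rspo1 (−0.61), 0.129 for Lgr6 (−0.91) and 1 for Lgr4 (−0.22) in Wnthigh against Wntlow. Genes called then numbered 2824, 1061 and 1351, against 12142, 7697 and 8402 with the term, since the offset between runs enters the error. Experiments 2 to 5 alone called 2532 genes for Wntlow against Wntnegative and 3291 for Wnthigh against Wntlow, where Rspo1 (−0.44) and Lgr4 (−0.30) did not pass. Experiments 7 to 9 alone called 7906 genes for Wnthigh against Wntnegative, where Rspo1 (0.34) did not pass, and 4471 for Wntlow against Wntnegative, and Lgr4 (−0.14) did not pass in Wnthigh against Wntlow. Fewer arrays enter each of these fits. Lgr4 in Wnthigh against Wntlow also missed the threshold with only the 2 groups fitted (−0.22, adjusted p = 0.0591) and with arrays centred on their medians (−0.19). In Wnthigh against Wntnegative, Lgr4 passed with array weights (−0.17, limma adjusted p = 0.0341) and by exact permutation (−0.16, unadjusted p = 0.04), as did Lgr6 by exact permutation (0.13, unadjusted p = 0.03). The cause was not tested for Lgr4.

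With the experiment as a replicate block, 11573, 8002 and 8139 genes were called, no member's call changed, and Lgr5 in Wnthigh against Wntnegative became −0.0092. Other changes of sign were of Lgr5 and Rspo3, both below background: Lgr5 was −0.015 in Wnthigh against Wntnegative in experiments 7 to 9 alone and 0.012 in Wntlow against Wntnegative after quantile normalization. Rspo3 in Wnthigh against Wntlow was −0.036 in experiments 7 to 9 alone, −0.016 after quantile normalization, and −0.0033 without the Wntlow array of experiment 4 or of experiment 5, alternatives chosen after seeing the data. Leaving out 1 experiment at a time kept the calls of Rspo1 and Lgr6. The ranges for Rspo1 were 0.48 to 0.70, 1.13 to 1.37 and −0.75 to −0.51 in the 3 comparisons in the order above, and those for Lgr6 0.10 to 0.15, 0.88 to 1.17 and −1.07 to −0.76. Lgr4 ranged over −0.20 to −0.11 in Wnthigh against Wntnegative, passing without experiment 4 or 8, and −0.25 to −0.17 in Wnthigh against Wntlow, not passing without experiment 5. Lgr5 in Wnthigh against Wntnegative ranged over −0.0074 to 0.043, and Rspo3 in Wnthigh against Wntlow over −0.033 to 0.040. With the limit from control probe sets, Lgr4 was above background on 2 arrays and Lgr6 on 3, against 9 and 7. Low signal limits what can be said of Lgr4, Lgr5 and Rspo3.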
